A study of Mus musculus with 20 samples.

Results

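The response of cancer-associated fibroblasts (CAFs) to EIPA was set against their response to interleukin-1 alpha (IL-1a), gene by gene, in immortalised primary CAFs from the mouse. The quantity described is a difference of differences on log2(TPM + 1). It is the change with EIPA against its vehicle minus the change with IL-1a against its own vehicle. All 20 libraries of the series entered, 5 in each of 4 groups, and all genes with at least 1 TPM (a transcript's length-scaled share of its library) in at least 5 libraries were taken, which were 12350 of the 32285 genes in the table. CAFs are the fibroblasts of the tumour stroma, and the comparison asks which inflammatory genes respond to both treatments and which to 1 of them. The first pair of groups was cultured in 0.2 mM glutamine with EIPA at 25 uM or with DMSO as the vehicle. The other pair was cultured in 4 mM glutamine with DMSO, with IL-1a at 25 pg/mL or without it. Every group was treated for 32 h, and the titles name DMSO for every group but the one with EIPA. The cells are immortalised, and the labels do not say how many isolates they come from. The glutamine level thus differs between the responses compared, and its part in a difference cannot be told apart from that of the agent. The protocol text gives the EIPA dose in mM where the titles give uM, and the titles were followed. Whether the 5 replicates come from separate cultures is not in the labels, and p-values here reflect only the spread between these samples.

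IL-1a binds the IL-1 receptor on fibroblasts, which signals through MyD88 and the IRAK kinases to the transcription factor NF-kB. NF-kB turns on chemokine, cytokine and acute phase genes together with its own inhibitors, among them Nfkbia, and IL-1 is known to drive the inflammatory CAF state in pancreatic tumours. EIPA, an analogue of amiloride, blocks sodium-proton exchange at the plasma membrane and is used to stop macropinocytosis, a route by which cells take up fluid and protein when glutamine is short.

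Between 11749 and 12045 genes reached 1 TPM in a library. Mitochondrially encoded mRNAs took 5.69% ± 0.631 of TPM (SD, n = 5) with EIPA, 8.87% ± 0.276 in 0.2 mM vehicle, 10.0% ± 0.513 with IL-1a and 10.4% ± 1.17 in 4 mM vehicle. Along the third principal component, with 4.07% of the variance, 3 libraries stood apart, IL-1a replicates 1 and 5 and 4 mM vehicle replicate 5. Without them 3618 differences and 34 IL-1a responses were called, against 3569 and 35 with them. Scores on this component also fell from replicate 1 to replicate 5, from 4.6 to -9.03 with EIPA and 1.3 to -4.7 in 0.2 mM vehicle. In 4 mM vehicle they fell from 13.05 to -17.23. With IL-1a, replicate 1 was at -18.78, and scores fell from 12.48 in replicate 2 to -17.26 in replicate 5. What this order reflects was not tested. Of the markers of other cell types 2 of 14 (leukocyte), 5 of 12 (epithelial), 3 of 12 (endothelial), 3 of 9 (mural) and 3 of 8 (Schwann cell) reached the filter. Ptprc, Epcam, Pecam1, Rgs5 and Sox10, which define these types in that order, had a mean TPM of 0.0005, 0.103, 0.0775, 0.096 and 0. Others were higher, above all Krt19 (176) and Krt18 (10.3) of epithelium, and Ncam1 (40) and Mbp (31.4) of the Schwann list. Of the mural list these were Pdgfrb (22.3), which is also on the pan-fibroblast list, Mcam (7.78) and Des (7.51). Of endothelium they were Egfl7 (6.67) and Kdr (4.95). The fibroblast genes Pdgfra and Pdpn were at 25.9 and 128, while Lum and Fap were at 0.1 and 0.0505 and did not pass. Of the 15 pan-fibroblast markers 13 were tested, and their summed level ran from 3670 to 4210 TPM with EIPA, 6450 to 7530 in 0.2 mM vehicle, 12100 to 16500 with IL-1a and 14300 to 16100 in 4 mM vehicle. In the same order of groups, leukocyte markers summed to 0.86 to 1.51, 0.18 to 0.63, 1.66 to 3.97 and 1.38 to 2.49 TPM, epithelial ones to 89.9 to 121, 134 to 208, 170 to 367 and 190 to 404, and endothelial ones to 16.5 to 17.5, 12.7 to 15.9, 9.14 to 12.1 and 11.4 to 15.7. Mural markers summed to 20.1 to 26.3, 24 to 28.8, 46.2 to 58 and 46.5 to 56.2 TPM, and Schwann cell markers to 49.2 to 54.9, 74.3 to 84.6, 70 to 86.9 and 79.6 to 86.4. Pdgfrb entered both the mural and the pan-fibroblast sums, with means of 15.1, 11.3, 31.4 and 31.5 TPM. The part of these shares and sums in the responses was not tested. In bulk libraries, fewer cells of a kind and less RNA per cell cannot be told apart.

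The EIPA response was broad and the IL-1a response narrow. With limma and Benjamini-Hochberg adjustment under 0.05, the EIPA response was called for 5986 genes (48.5% of those tested), 3383 higher (27.4%) and 2603 lower (21.1%). IL-1a changed 35 genes (0.283%), of which 32 rose (0.259%) and 3 fell (0.0243%). Before adjustment 744 of the 12350 genes were under 0.05, where a share of 0.05 is reached by chance without any response. The difference between the responses was called for 3569 genes (28.9%). It was positive, higher with EIPA, for 2017 (16.3%) and negative for 1552 (12.6%), and 211 and 143 of these differed at least 2-fold. With the mitochondrially encoded genes left out and TPM rescaled, 1634 differences were higher and 1880 lower, so the balance of signs depends on scaling. Of the 3569, 3459 were genes with a called EIPA response and no called IL-1a response, and in 87 neither response was called. Log2 fold changes spread over genes with an SD of 0.42 for EIPA and 0.14 for IL-1a. Both responses correlated weakly over the tested genes (Pearson r = 0.22, Spearman rho = 0.19), which is a description over genes and not over replicates. The responses have no library in common. The median 95% interval of a difference reached 0.25 to either side, so smaller differences could not be resolved for most genes.

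**Figure D1:**
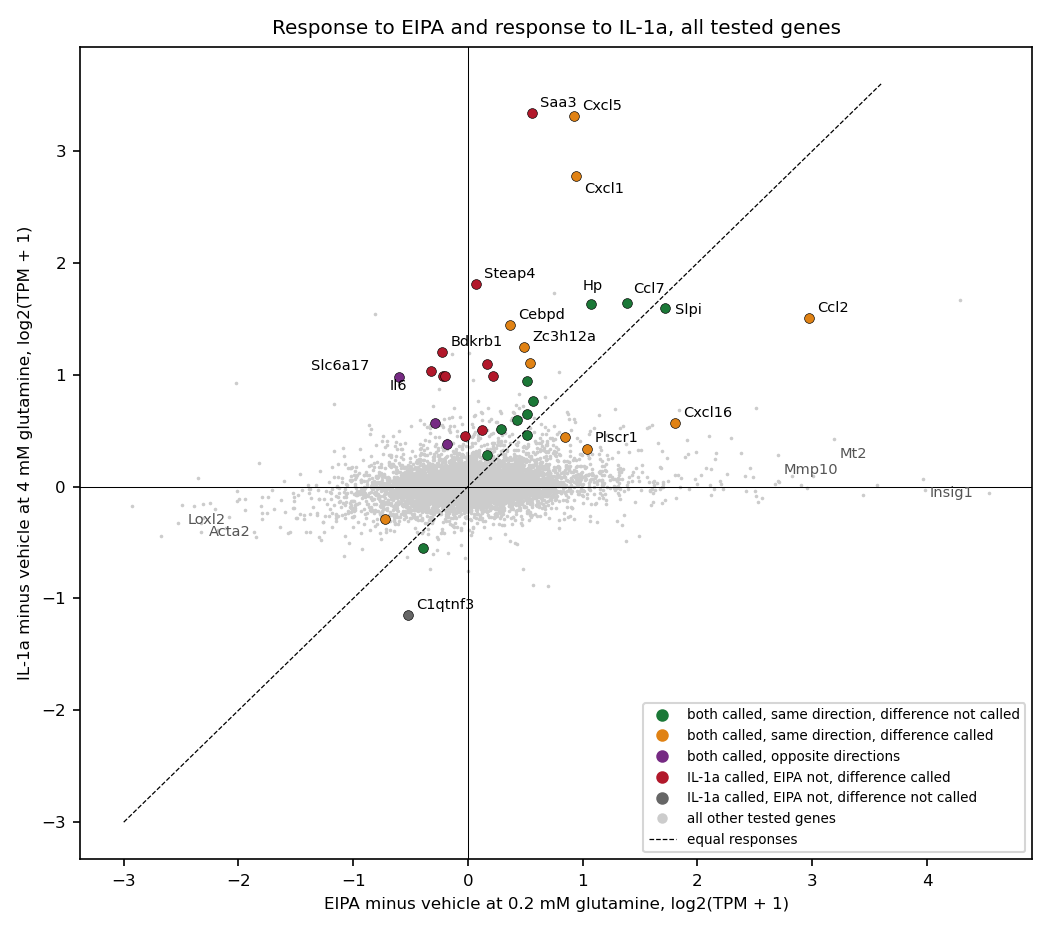
Response to EIPA at 0.2 mM glutamine (horizontal axis) and to IL-1a at 4 mM glutamine (vertical axis) for 12350 tested genes, both as log2 fold changes of TPM + 1 over 5 against 5 libraries. The 35 genes called with IL-1a are coloured by their class, grey points are all other genes, and the dashed line marks equal responses. Most grey points lie along the horizontal axis, and Saa3, Cxcl5 and Cxcl1 lie far above the line.

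The 35 genes that IL-1a changed were sorted by what EIPA did to them. EIPA also changed 24 of them (68.6%, where 48.5% of all tested genes were called). Of the 32 that rose with IL-1a, 19 rose with EIPA (59.4%, against 27.4% of all genes), 3 fell and 10 were not called. In 11 genes both responses were called in 1 direction and their difference was not, and in 10 they went 1 way by different amounts. In 3 genes they went opposite ways. In 10 genes the IL-1a response and the difference were called and the EIPA response was not, and these are described as changed with IL-1a only. An EIPA response that was not called is not shown to be absent. The last gene, C1qtnf3, a secreted C1q family protein, had neither a called EIPA response nor a called difference. Among the genes called with EIPA and not with IL-1a, 3459 had a called difference (changed with EIPA only) and 2503 did not. For those 2503 the data do not show whether IL-1a acts otherwise. Over 31 other settings, including the removal of each library in turn, 15 of the 35 genes kept their class wherever they were tested: Bcl3, Bdkrb1, Casp4 and Steap4 (IL-1a only), Ccl7, Dpy19l1, Hp and Wdyhv1 (difference not called), Ccl2, Cxcl1, Cxcl5, Fgfr1op, Nfkbiz and Zc3h12a (unequal) and Slc6a17 (opposite).

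Promoter sequences were read from RefSeq (GRCm38.p6), 250 bases before to 50 after each start, and were found for 9644 tested genes. They were searched on both strands for the kB consensus, the motif of NF-kB, and for TGANTCA, the AP-1 motif, with overlapping matches each counted. The kB consensus stood in 12.4% of the tested genes' promoters and in 9.55% of all 27025 in the table. It stood in 6 of the 9 promoters found for the 10 genes changed with IL-1a only (Bcl3, Casp4, Il6, Nfkbia, Steap4 and Susd6, 66.7%). It stood in 1 of 6 found for the 11 genes where the difference was not called (Sbno2). For the 10 unequal genes it stood in 1 of 4 found (Cxcl1), and for the 3 opposite genes in 1 of 3 (Dtwd1). Promoters of Ccl2, Ccl7, Cxcl5, Cxcl16 and Nfkbiz were among those not found, and whether the shares differ between classes was not tested. Over the 32 genes that rose with IL-1a, the kB consensus stood in 9 of the 20 promoters found (45.0%). Among genes changed with EIPA only it stood in 12.6%. TGANTCA was in 5.87% of the tested promoters and in 8.97% of all in the table. It was in 6.86% of those of genes changed with EIPA only, and in 13.7% where these rose at least 2-fold. The kB consensus stood in 14.3% of that 2-fold set. A match is a description of the letters, not a shown site. The stretches below are the 120 bases before the start, 5′ to 3′ on the gene's strand, with kB matches in capitals. Il6, Nfkbia and Casp4 are shown as genes changed with IL-1a only, and Cxcl1 as one that both treatments raised unequally. Each of these holds a match in this stretch. Steap4, Susd6, Bcl3, Sbno2, Saa3, Slpi and Zc3h12a hold 0 matches there and are not shown.
Il6 (chr5:30012994-30013113, plus strand): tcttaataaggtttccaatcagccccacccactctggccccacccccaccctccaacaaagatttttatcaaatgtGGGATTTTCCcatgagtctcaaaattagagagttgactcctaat
Nfkbia (chr12:55492648-55492767, minus strand): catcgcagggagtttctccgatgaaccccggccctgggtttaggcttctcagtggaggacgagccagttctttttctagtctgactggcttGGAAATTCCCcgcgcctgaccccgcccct
Casp4 (chr9:5308729-5308848, plus strand): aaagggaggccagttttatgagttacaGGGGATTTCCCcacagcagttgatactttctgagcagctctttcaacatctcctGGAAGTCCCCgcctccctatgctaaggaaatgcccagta
Cxcl1 (chr5:90891125-90891244, plus strand): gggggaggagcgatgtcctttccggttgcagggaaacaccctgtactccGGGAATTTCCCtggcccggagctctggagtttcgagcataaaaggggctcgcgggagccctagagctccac
The match in Il6 begins 44 bases before the start and that in Nfkbia 29 bases. Casp4 holds 3 matches in this stretch, a pair of them overlapping, and Cxcl1 holds an overlapping pair that begins 71 bases before the start.

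Chemokines recruit leukocytes, and the 5 that IL-1a raised, Ccl2, Ccl7, Cxcl1, Cxcl5 and Cxcl16, all rose with EIPA. Of 29 chemokines on the list 14 were tested. EIPA raised 6 and lowered 0 (27.4% and 21.1% of all genes), and IL-1a raised 5 and lowered 0 (0.259% and 0.0243% of all). The difference was higher for 3, lower for 4 and not called for 7 (50% called, against 28.9% of all genes). The median difference over the 14 was -0.143, and over all genes 0.014. Cxcl2, a neutrophil chemokine, did not pass the filter, with at most 0.62 TPM in any library.

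Cxcl1 and Cxcl5, which attract neutrophils through CXCR2, rose with both treatments and more with IL-1a. Both genes lie on the plus strand of chromosome 5, Cxcl5 at 90759360 to 90761624 and Cxcl1 at 90891241 to 90893115 (GRCm38, GENCODE M21). Cxcl1 was at 0.82, 1.37, 0.76, 1.01 and 1.14 TPM in the 5 vehicle libraries at 0.2 mM glutamine and at 2.44, 3.17, 2.31, 2.76 and 3.73 with EIPA. It was at 6.94, 8.03, 7.54, 5.63 and 10.2 TPM in 4 mM vehicle and at 89.3, 78.00, 52.4, 43.3 and 39.5 with IL-1a. Neither pair of groups overlapped, and every EIPA library stayed below every library of the 4 mM vehicle. The log2 fold change was 0.94 ± 0.18 with EIPA (SE; limma adjusted p = 2.9e-04) and 2.77 ± 0.18 with IL-1a (limma adjusted p = 9.4e-09), a difference of -1.84 ± 0.26 (limma adjusted p = 2.7e-05). Cxcl5 went from 0.26, 0.14, 0.13, 0.54 and 0.14 TPM in 0.2 mM vehicle to 0.86, 1.36, 1.38, 1.49 and 1.66 with EIPA. At 4 mM it went from 3.25, 3.88, 4.24, 3.81 and 5.40 TPM to 105, 59.6, 42.4, 36.8 and 29.9. Again no group overlapped with its control, and the highest IL-1a library was replicate 1. The difference was -2.39 ± 0.32 (limma adjusted p = 1.1e-05). It was -1.39 with 0.1 TPM added in place of 1, since the added 1 TPM shrinks the change of a gene that starts low.

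Ccl2 and Ccl7, whose products attract monocytes, rose with both treatments. They lie on the plus strand of chromosome 11, at 82035571 to 82037453 and 82045712 to 82047525. Ccl2 was at 3.97, 3.04, 2.15, 3.49 and 2.37 TPM in 0.2 mM vehicle and at 19.8, 24.04, 24.3, 48.8 and 42.3 with EIPA. In 4 mM vehicle it was at 55.00, 49.8, 48.2, 50.5 and 37.02 TPM, and with IL-1a at 132, 184, 158, 130.3 and 97.00. The EIPA libraries lay far above their vehicle and overlapped with the 4 mM vehicle, with replicates 4 and 5 the highest. The rise was 2.97 ± 0.21 with EIPA (limma adjusted p = 4.5e-10) and 1.50 ± 0.21 with IL-1a (limma adjusted p = 4.3e-04), and the EIPA response was the larger (difference 1.47 ± 0.29, limma adjusted p = 8.0e-04). Ccl7 was at 0.83, 0.96, 0.81, 2.32 and 1.21 TPM in 0.2 mM vehicle and 4.00, 3.39, 3.24, 6.46 and 7.38 with EIPA, and at 16.5, 17.6, 19.7, 17.7 and 13.1 in 4 mM vehicle and 48.7, 82.6, 72.1, 50.1 and 32.6 with IL-1a. No EIPA or IL-1a library overlapped with its control. Its rises were 1.39 ± 0.23 and 1.64 ± 0.23 (limma adjusted p = 4.4e-05 and 4.3e-04), with a difference of -0.25 and an interval of -0.92 to 0.42 (limma adjusted p = 0.59). That difference was 0.25 with 0.1 TPM added.

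Cxcl16, a membrane-bound chemokine for T cells, rose more with EIPA. Its levels were 8.55, 8.56, 7.32, 7.41 and 9.78 TPM in 0.2 mM vehicle and 26.1, 31.2, 30.5, 36.7 and 33.1 with EIPA, 5.61, 4.83, 5.03, 5.62 and 5.75 in 4 mM vehicle and 12.01, 8.49, 7.69, 7.90 and 6.69 with IL-1a. All 5 EIPA libraries exceeded all others in the series. The rise was 1.80 ± 0.11 with EIPA and 0.56 ± 0.11 with IL-1a (limma adjusted p = 1.2e-10 and 0.029), a difference of 1.24 ± 0.16 (limma adjusted p = 1.1e-05). The IL-1a call was lost without any 1 of 6 libraries of the 4 mM groups, IL-1a replicates 1 and 2 and vehicle replicates 1 to 4 (limma adjusted p = 0.055 to 0.106). It was also lost with replicate number as a block in the fit (0.0571) and with no filter on low values (0.0676). Its class thus rests on these libraries and settings. Cxcl12, a fibroblast chemokine that holds leukocytes in tissue, rose with EIPA only (0.33 ± 0.06, difference 0.44 ± 0.09, limma adjusted p = 7.6e-04). Its EIPA libraries (585.98 to 801.34 TPM) overlapped with their vehicle (530.02 to 596.45) and stayed below the 4 mM vehicle (1336.5 to 1414.03). Its IL-1a libraries all lay below their vehicle, with a change of -0.12 ± 0.06 that was not called. Of the members named after their values were seen, Cxcl10 and Ccl20 had called differences of -1.04 ± 0.29 and -0.92 ± 0.30 with neither response called.

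**Figure D2:**
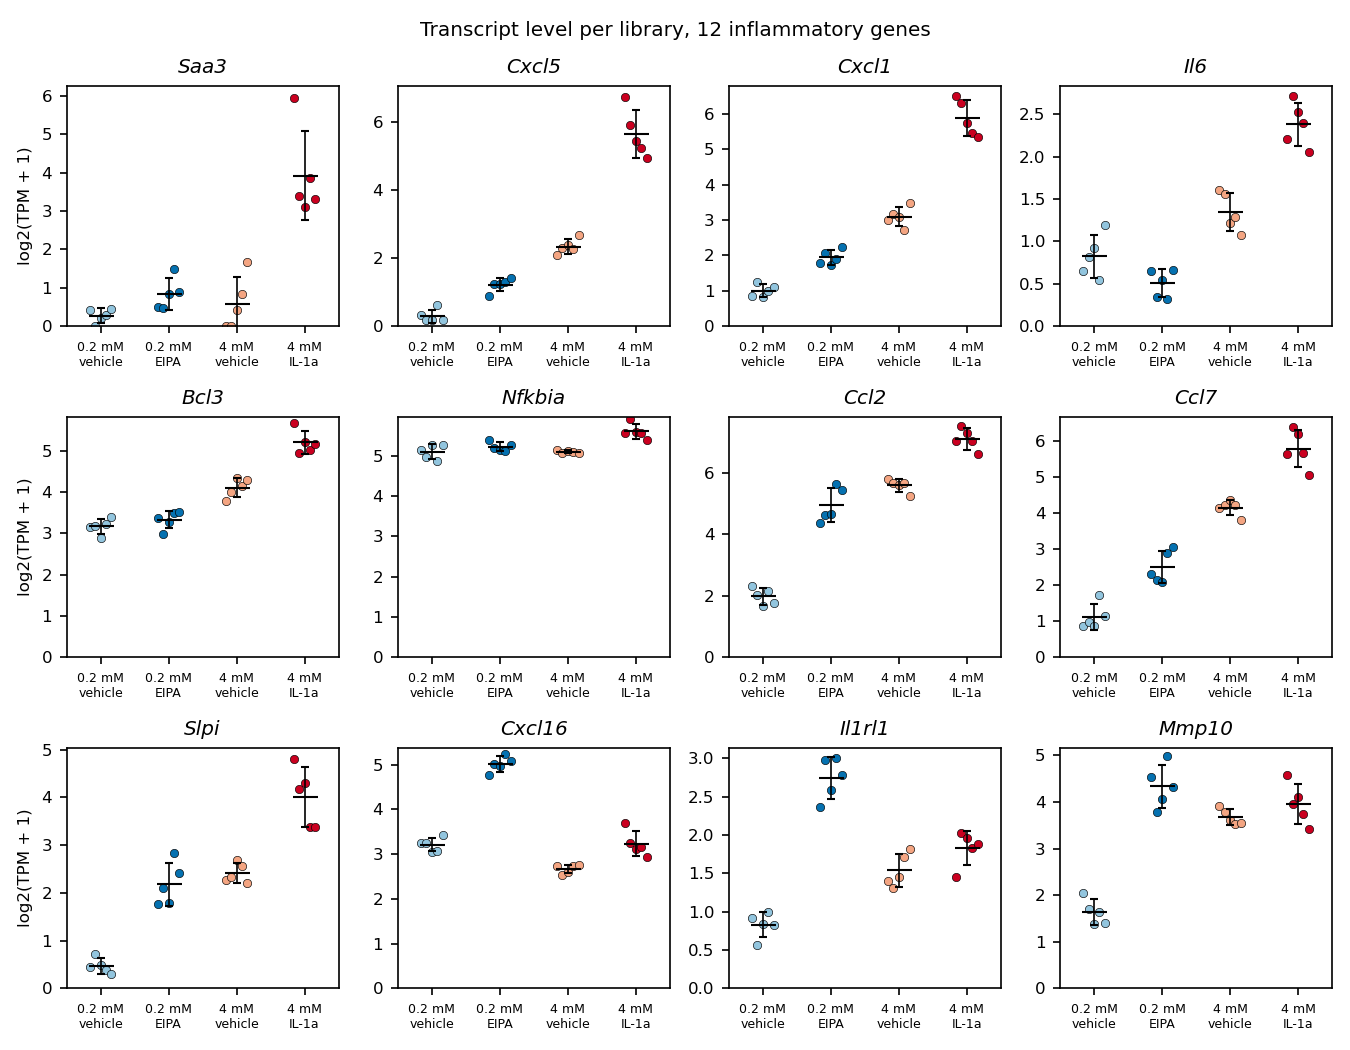
Level of 12 inflammatory genes in each of the 20 libraries, as log2(TPM + 1), by group. Each point is a library, the horizontal bar is the group mean and the whisker 1 SD (n = 5). Cxcl1 and Cxcl5 are highest with IL-1a and stay below the 4 mM vehicle with EIPA, while Cxcl16 and Il1rl1 are highest with EIPA.

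Cytokines of the IL-6 family signal through gp130 and STAT3. Il6, the cytokine by which inflammatory CAFs are usually recognised, rose with IL-1a only. It was at 2.04, 1.94, 1.32, 1.44 and 1.11 TPM in 4 mM vehicle and at 3.63, 5.55, 4.74, 4.25 and 3.15 with IL-1a. In 0.2 mM vehicle it was at 0.57, 0.76, 0.89, 0.46 and 1.29 TPM and with EIPA at 0.57, 0.27, 0.46, 0.25 and 0.59. The IL-1a libraries lay above all others, and the EIPA libraries overlapped with their vehicle. The change was 1.03 ± 0.14 with IL-1a (limma adjusted p = 4.3e-04) and -0.32 ± 0.14 with EIPA (limma adjusted p = 0.071), a difference of -1.35 (95% interval -1.77 to -0.93). With 0.1 TPM added Il6 fell by 0.75 with EIPA (limma adjusted p = 0.0222). The fall was also called without 0.2 mM vehicle replicate 4 (limma adjusted p = 0.0386) and without the 3 libraries that stand apart (0.0435). Lif, another gp130 ligand, fell with EIPA from 8.76 ± 2.50 to 4.41 ± 1.10 TPM (SD, n = 5), a change of -0.84 ± 0.16, and was at 10.2 ± 1.01 with IL-1a and 11.8 ± 1.37 in its vehicle. Its difference of -0.66 ± 0.22 (limma adjusted p = 0.031) was lost without any 1 of 8 libraries (0.0504 to 0.0573): EIPA replicate 1, 0.2 mM vehicle replicates 2, 4 and 5, IL-1a replicates 2 and 4, and 4 mM vehicle replicates 3 and 4. That difference was also lost with no filter on low values (limma adjusted p = 0.066). Of the 21 tested genes of the IL-6 family and JAK-STAT3 pathway, the difference was higher for 1, Tyk2, lower for 3 and not called for 17 (19% called, below the 28.9% of all genes). Beside Il6 and Lif, the ligand Clcf1 was lower (-0.65 ± 0.13). EIPA raised 4 and lowered 3 of the 21 (27.4% and 21.1% of all), and IL-1a raised 1 (0.259% of all). Il11, a gp130 ligand of fibroblasts, did not pass the filter.

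The IL-1 pathway itself, ligands, receptors and adaptors, gave 19 tested genes, with the difference higher for 4, lower for 1 and not called for 14 (26.3% called, near the 28.9% of all genes). IL-1a changed 0 of them (0.283% of all genes) and EIPA raised 8 (27.4% of all). Il1r1, the receptor for IL-1a, was at 6.69 ± 0.454 TPM with EIPA and 6.25 ± 0.920 in vehicle, at 13.0 ± 3.52 with IL-1a and 9.93 ± 0.837 in its vehicle, and neither response nor the difference (interval -0.60 to 0.12) was called. Il1rl1, the receptor for IL-33, rose with EIPA only. It was at 0.89, 0.48, 0.79, 0.99 and 0.78 TPM in 0.2 mM vehicle and 4.15, 6.88, 5.01, 7.01 and 5.91 with EIPA, and at 1.64, 1.47, 1.74, 2.27 and 2.54 in 4 mM vehicle and 1.73, 3.06, 2.89, 2.57 and 2.70 with IL-1a. The EIPA libraries lay above all other libraries, and the IL-1a libraries overlapped with theirs. The rise was 1.91 ± 0.14 (limma adjusted p = 7.3e-10) and the difference 1.62 ± 0.19 (limma adjusted p = 3.6e-06). Il33, its ligand, had a difference of -1.13 ± 0.31 (limma adjusted p = 0.011) with neither response called, at 58.8 ± 34.4 TPM with IL-1a, 29.0 ± 5.81 in its vehicle and below 1 TPM on average in both 0.2 mM groups. Downstream of the receptor, the adaptor Myd88 (0.35 ± 0.11), the kinase Irak2 (0.37 ± 0.12) and Map3k7, the TAK1 kinase (0.31 ± 0.07), had higher differences, all with called EIPA rises.

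Acute phase and complement genes are secreted in inflammation, in the liver above all. Of the 18 tested, EIPA raised 6 and lowered 2 (27.4% and 21.1% of all genes), and IL-1a raised 5 (0.259% of all). The difference was higher for 1, lower for 5 (16.3% and 12.6% of all) and not called for 12. The share of called differences was 33.3%, near the 28.9% of all genes. The median was 0.184 for EIPA, 0.401 for IL-1a and -0.398 for the difference. Saa3, serum amyloid A3, had the largest IL-1a response of all genes on the log2(TPM + 1) scale. Its gene lies on chromosome 7, 46711998 to 46715700, on the minus strand. It was at 0, 0, 0.35, 0.78 and 2.17 TPM in 4 mM vehicle and 60.9, 9.47, 7.67, 13.5 and 8.86 with IL-1a. It was at 0.35, 0, 0.17, 0.22 and 0.37 TPM in 0.2 mM vehicle and 0.42, 0.38, 0.78, 1.81 and 0.87 with EIPA. Replicate 1 with IL-1a stood far above the other 4, and the lowest EIPA library lay just above the highest of its vehicle. The IL-1a rise was 3.34 ± 0.40 (limma adjusted p = 1.0e-04) and the EIPA change 0.56 ± 0.40 (limma adjusted p = 0.26), a difference of -2.78 ± 0.57 (limma adjusted p = 9.9e-04). The fit shares 1 spread over the 4 groups, and the SD of Saa3 was 22.9 TPM with IL-1a, 0.58 with EIPA and 0.15 in 0.2 mM vehicle. Without the 3 libraries that stand apart the EIPA rise was called (limma adjusted p = 0.0255).

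Steap4, a metalloreductase induced in inflammation, also rose with IL-1a only (1.81 ± 0.26, limma adjusted p = 6.6e-04). It was at 5.13 ± 4.33 TPM with IL-1a, 0.528 ± 0.366 in its vehicle and at most 0.11 in any 0.2 mM library. Cebpd, a transcription factor of the acute phase, rose by 1.45 ± 0.15 with IL-1a and 0.36 ± 0.15 with EIPA, a difference of -1.08 ± 0.21 (limma adjusted p = 5.2e-04). The small EIPA rise was lost under 4 other settings (limma adjusted p = 0.0597 to 0.0848) and without any 1 of 9 libraries (0.0502 to 0.131): EIPA replicates 1, 3 and 4, 0.2 mM vehicle replicates 1, 2, 3 and 5, IL-1a replicate 4 and 4 mM vehicle replicate 3. Hp, haptoglobin, and Slpi, an inhibitor of neutrophil elastase, rose with both. Slpi was at 0.37, 0.65, 0.40, 0.30 and 0.23 TPM in 0.2 mM vehicle and 2.38, 3.31, 2.45, 6.13 and 4.37 with EIPA, and at 3.79, 4.07, 5.46, 4.90 and 3.65 in 4 mM vehicle and 27.1, 17.01, 18.8, 9.41 and 9.45 with IL-1a. Neither treated group overlapped with its control, and the EIPA libraries overlapped with the 4 mM vehicle. The rises were 1.71 ± 0.23 and 1.60 ± 0.23 (limma adjusted p = 4.5e-06 and 6.9e-04) and the difference 0.12 (interval -0.57 to 0.80). With 0.1 TPM added the difference was 1.15 and called (limma adjusted p = 0.039), since the ratio of mean TPM was 9.56 with EIPA and 3.74 with IL-1a. Hp rose by 1.07 ± 0.29 with EIPA and 1.63 ± 0.29 with IL-1a, with an interval of the difference from -1.41 to 0.29, and the difference was 0.44 with 0.1 TPM added. C3, the central complement protein, was at 20.2 ± 16.2 TPM with IL-1a and 7.00 ± 2.11 in its vehicle (1.19 ± 0.31, limma adjusted p = 0.18) and changed by -0.14 ± 0.31 with EIPA. Its difference of -1.32 ± 0.43 (limma adjusted p = 0.027) was lost without EIPA replicate 2 (0.0505) and with no filter on low values (0.0614). Lcn2, an acute phase protein of the panel, did not pass the filter, with at most 2.01 TPM.

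NF-kB induces its own inhibitors, and several of these had called differences. Of 24 tested subunits and feedback genes the difference was higher for 6, lower for 7 and not called for 11 (54.2% called, against 28.9%). EIPA raised 10 and lowered 3 (27.4% and 21.1% of all), and IL-1a raised 4 (0.259% of all). Nfkbia, which holds NF-kB in the cytoplasm, was at 34.3, 32.8, 33.9, 33.4 and 32.5 TPM in 4 mM vehicle and 46.2, 59.4, 47.4, 46.6 and 41.4 with IL-1a. It was at 34.3, 30.5, 37.5, 28.4 and 37.7 TPM in 0.2 mM vehicle and 41.1, 35.9, 34.4, 34.05 and 37.4 with EIPA. All IL-1a libraries lay above all others of the series, with the highest EIPA library just below the lowest of them, and the EIPA libraries overlapped with their vehicle. The IL-1a rise was 0.51 ± 0.08 (limma adjusted p = 0.0035), and the EIPA change 0.12 ± 0.08 was not called (limma adjusted p = 0.26, 0.0416 with a quality weight per library). The difference was -0.39 (interval -0.64 to -0.14, limma adjusted p = 0.019).

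Bcl3, a nuclear IkB protein, was at 12.7, 14.9, 19.2, 16.5 and 18.5 TPM in 4 mM vehicle and 49.97, 29.8, 35.8, 31.4 and 34.5 with IL-1a, and at 7.91, 8.04, 6.40, 8.27 and 9.47 in 0.2 mM vehicle and 9.34, 6.96, 8.66, 10.2 and 10.4 with EIPA. Its IL-1a libraries exceeded all others, and its EIPA libraries overlapped with vehicle. The rise was 1.09 ± 0.13 (limma adjusted p = 1.1e-04) and the difference -0.93 ± 0.19 (limma adjusted p = 9.3e-04). Nfkbiz, the nuclear co-activator of Il6 and Lcn2, rose by 1.10 ± 0.12 with IL-1a and 0.54 ± 0.12 with EIPA (difference -0.56 ± 0.16, limma adjusted p = 0.014). Zc3h12a, the RNase that degrades Il6 mRNA, rose by 1.25 ± 0.14 and 0.49 ± 0.14 (difference -0.76 ± 0.19, limma adjusted p = 0.0052). Tnfaip3, the A20 inhibitor of NF-kB signalling, went another way: it fell with EIPA from 23.6 ± 2.55 to 13.1 ± 1.86 TPM (-0.80 ± 0.18, limma adjusted p = 0.0011) and changed by 0.09 ± 0.18 with IL-1a. The groups did not overlap with EIPA and overlapped widely with IL-1a. With EIPA only, the kinase Ikbkb (0.61 ± 0.05), the inhibitor Nfkbib (0.44 ± 0.08) and Birc3, a ubiquitin ligase (0.83 ± 0.08), rose, and its relative Birc2 (-0.42 ± 0.08) and the adaptor Traf2 (-0.20 ± 0.06) fell. These were named after their values were seen. Subunit genes Rela (interval of the difference -0.06 to 0.21) and Nfkb1 (-0.19 to 0.09) had no called response.

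The other genes that rose with IL-1a only have varied roles. Bdkrb1, the inducible bradykinin receptor, was at 7.04 ± 2.25 TPM with IL-1a and 2.41 ± 0.524 in its vehicle (1.20 ± 0.18), and changed by -0.23 ± 0.18 with EIPA. Ch25h, which makes 25-hydroxycholesterol, rose by 0.99 ± 0.19 and changed by -0.20 ± 0.19 with EIPA. Rgs4, a regulator of G protein signalling, rose by 0.99 ± 0.16 and changed by -0.22 ± 0.16 with EIPA, where it was below 0.5 TPM in every 0.2 mM library. With 0.1 TPM added, Rgs4 fell by 0.83 with EIPA (limma adjusted p = 0.0205). Casp4, caspase-11 of the mouse, which senses cytosolic lipopolysaccharide, differed in its start. It was at 15.1, 11.7, 14.6, 16.4 and 17.4 TPM in 0.2 mM vehicle and 16.6, 13.9, 13.99, 21.8 and 23.3 with EIPA, and at 5.96, 7.59, 5.72, 6.81 and 8.84 in 4 mM vehicle and 21.2, 13.2, 14.02, 13.97 and 12.4 with IL-1a. Casp4 rose by 0.99 ± 0.15 with IL-1a, and its IL-1a libraries overlapped with both 0.2 mM groups. Susd6, a membrane protein, rose by 0.46 ± 0.09 and changed by -0.02 ± 0.09 with EIPA, and its IL-1a libraries overlapped with both 0.2 mM groups. Limma adjusted p for these 5 IL-1a rises lay between 0.0012 and 0.032, and their differences were -1.21, -1.43, -1.19, -0.77 and -0.48 for Rgs4, Bdkrb1, Ch25h, Casp4 and Susd6. The IL-1a call of Susd6 was lost without any 1 of 6 libraries (limma adjusted p = 0.0522 to 0.112), IL-1a replicates 2 and 3 and 4 mM vehicle replicates 1, 3, 4 and 5. That of Ch25h was lost without any 1 of 4 (0.0598 to 0.0732), IL-1a replicate 3 and 4 mM vehicle replicates 1, 2 and 4. With no filter on low values the IL-1a calls of Susd6 (limma adjusted p = 0.0676) and Ch25h (0.05) were lost too.

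Apart from Ccl7, Hp and Slpi, 8 genes changed with both treatments without a called difference, and 7 of them are described. Dpy19l1, which mannosylates tryptophan in secreted proteins, was at 35.8, 31.7, 30.9, 31.8 and 32.1 TPM in 0.2 mM vehicle and 46.04, 43.2, 44.8, 51.6 and 47.8 with EIPA, and at 62.8, 57.1, 56.97, 52.2 and 59.8 in 4 mM vehicle and 121, 87.4, 85.6, 80.4 and 84.3 with IL-1a. All treated libraries lay above their controls. It rose by 0.51 ± 0.09 and 0.65 ± 0.09, and the interval of the difference ran from -0.38 to 0.12. Wdyhv1, which deamidates glutamine at the N-terminus of proteins, rose by 0.51 ± 0.08 and 0.46 ± 0.08 (interval -0.19 to 0.28). Sbno2, a mediator of IL-10 signalling, rose by 0.17 ± 0.05 and 0.28 ± 0.05 (-0.26 to 0.03), and Tgfbr3, the betaglycan co-receptor, by 0.43 ± 0.12 and 0.60 ± 0.12 (-0.52 to 0.18). Cobl, an actin nucleator, fell by 0.39 with EIPA and by 0.55 with IL-1a (interval of the difference -0.07 to 0.38), and no group overlapped with its control. Fgf7 and Serpinb1b were near 1 TPM in some group, where the added 1 TPM weighs most.

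Fgf7, a growth factor for epithelium, rose by 0.57 ± 0.16 and 0.76 ± 0.16 (interval of the difference -0.68 to 0.28), and Serpinb1b, a protease inhibitor with a close paralogue that may share its reads, by 0.29 ± 0.11 and 0.52 ± 0.11 (-0.55 to 0.10). With 0.1 TPM added the difference was 0.13 for Fgf7. The IL-1a call of Fgf7 was lost without any 1 of 15 libraries (limma adjusted p = 0.054 to 0.196), which are all but EIPA replicate 4, IL-1a replicates 4 and 5 and 4 mM vehicle replicates 1 and 2. That of Serpinb1b was lost without any 1 of 18 (0.0503 to 0.178), all but IL-1a replicates 2 and 5, and that of Tgfbr3 without any 1 of 4 (0.0645 to 0.0924), IL-1a replicate 3 and 4 mM vehicle replicates 1, 2 and 4. In all, 6 other settings ended the IL-1a call of Fgf7 (limma adjusted p = 0.05 to 0.195), 3 that of Serpinb1b (0.0512 to 0.254) and 3 that of Tgfbr3 (0.0537 to 0.0829). Without the 3 libraries that stand apart, Fgf7 (0.195), Tgfbr3 (0.0829), Sbno2 (0.0632) and Serpinb1b (0.254) lost their IL-1a calls. The EIPA call of Sbno2 was lost with quantile normalisation (0.0509) and without the mitochondrial genes (0.0589). The EIPA call of Serpinb1b was lost without any 1 of 6 libraries (0.0502 to 0.079), EIPA replicates 2, 3 and 5 and 0.2 mM vehicle replicates 2, 3 and 4. It was also lost under 2 other settings (0.0517 to 0.0524).

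The remaining unequal and opposite genes have varied roles. Plscr1, an interferon-induced phospholipid scramblase, rose by 1.03 ± 0.07 with EIPA and 0.34 ± 0.07 with IL-1a (difference 0.70 ± 0.09), and Fgfr1op, a centrosome protein, by 0.84 ± 0.06 and 0.44 ± 0.06 (difference 0.40 ± 0.08). Ahcyl1, which binds the IP3 receptor, fell by 0.72 with EIPA and by 0.29 with IL-1a (difference -0.43 ± 0.08). Slc6a17, a neutral amino acid transporter of vesicles, went opposite ways. It was at 10.99, 11.8, 10.7, 10.5 and 12.7 TPM in 0.2 mM vehicle and 7.18, 8.31, 6.94, 6.95 and 6.29 with EIPA, and at 6.34, 5.61, 4.49, 4.17 and 4.60 in 4 mM vehicle and 12.97, 13.9, 12.3, 9.24 and 7.20 with IL-1a. The EIPA libraries all lay below their vehicle and the IL-1a libraries all above theirs. The fall was -0.60 ± 0.13 (limma adjusted p = 8.8e-04) and the rise 0.98 ± 0.13 (limma adjusted p = 3.9e-04). Dtwd1, a tRNA-modifying enzyme, fell with EIPA (-0.29 ± 0.09) and rose with IL-1a (0.57 ± 0.09), as did Ifnar2, a chain of the interferon receptor (-0.18 ± 0.07 and 0.38 ± 0.07). The EIPA fall of Ifnar2 was lost without any 1 of 5 libraries (limma adjusted p = 0.0515 to 0.0691), EIPA replicates 2 and 4 and 0.2 mM vehicle replicates 1, 2 and 4, and that of Dtwd1 without EIPA replicate 2 (0.0524). The IL-1a call of Plscr1 was lost without IL-1a replicate 1 or 2 or 4 mM vehicle replicate 3, 4 or 5 (0.0569 to 0.0764), and was 0.155 without the 3 libraries that stand apart. That of Ahcyl1 was lost without IL-1a replicate 1 or 3 or any 1 of 4 mM vehicle replicates 1 to 4 (0.0548 to 0.104), and with no intensity trend in the fit (0.0531). C1qtnf3 fell with IL-1a from 5.15 ± 2.01 to 1.79 ± 0.987 TPM (-1.15 ± 0.24, limma adjusted p = 0.045), a call lost without any 1 of 17 libraries (0.0503 to 0.167), all but IL-1a replicates 2 and 3 and 4 mM vehicle replicate 5, and changed by -0.52 ± 0.24 with EIPA. The IL-1a call of C1qtnf3 was also lost under 4 other settings (0.0532 to 0.22). Without 4 mM vehicle replicate 5 its EIPA fall (0.0369) and its difference (0.85, 0.0358) were called, and its EIPA fall was called under 3 other settings (0.00259 to 0.00376).

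**Figure D3:**
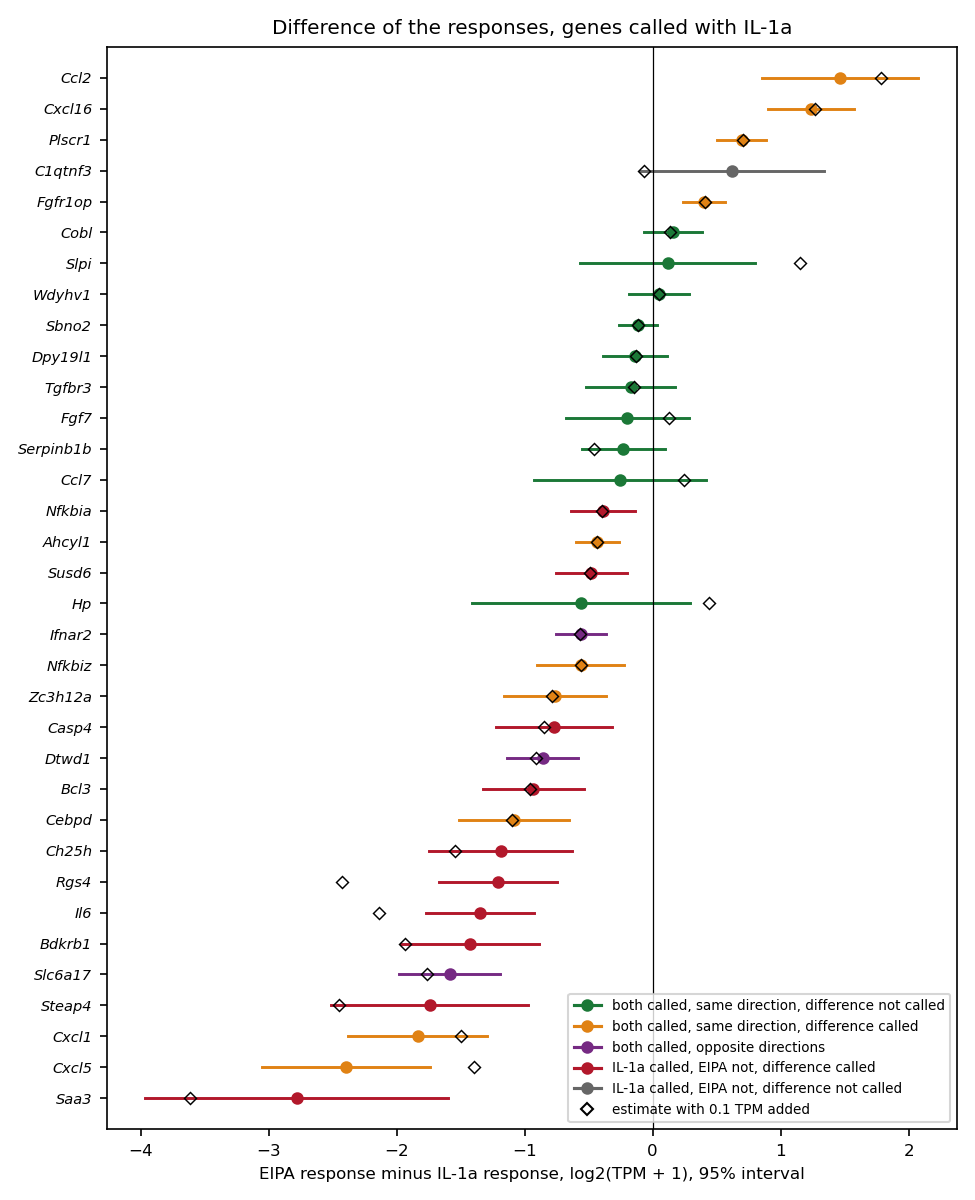
EIPA response minus IL-1a response for 34 of the 35 genes called with IL-1a, as log2 fold changes with 95% intervals (horizontal axis), ordered by size and coloured by class. Filled points use TPM + 1 and open diamonds TPM + 0.1. Slpi and Hp move to the right with the smaller addition, and Saa3, Il6 and Rgs4 move to the left.

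The levels reached were set beside the 4 mM vehicle, since the responses start from different levels. With EIPA, 13 of the 32 genes that rose with IL-1a stayed wholly below the range of the 4 mM vehicle (23.1% of all tested genes did), among them Il6, Cxcl1, Cxcl5, Ccl7, Bcl3 and Cebpd. Another 8 lay wholly above it (41.6% of all), among them Cxcl16, Casp4 and Plscr1, and 11 overlapped, among them Ccl2, Slpi and Nfkbia.

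Over the 12 inflammatory lists together, 235 of 322 members were tested. EIPA raised 97 and lowered 30 (27.4% and 21.1% of all genes), IL-1a raised 15 and lowered 0 (0.259% and 0.0243% of all), and the difference was higher for 42, lower for 38 and not called for 155 (34.0% called, against 28.9% of all genes). By class, 62 changed with EIPA only (28% of all genes did, a like share) and 5 with IL-1a only (0.081% of all). Another 7 changed unequally with both (0.081% of all) and 3 with both without a called difference (0.0891%). Medians were 0.208 for EIPA, 0.114 for IL-1a and 0.078 for the difference, against 0.024, 0.007 and 0.014 over all genes. The lists overlap in part and were written with earlier results of these data known.

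**Figure D4:**
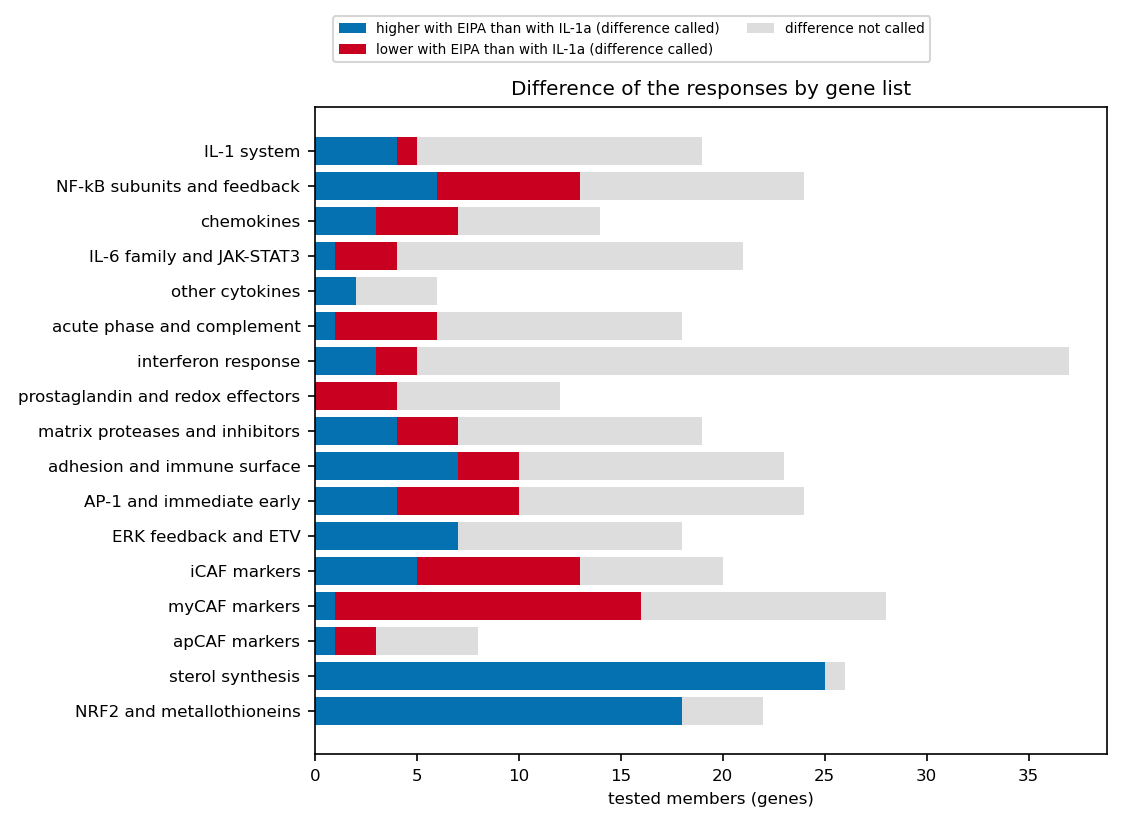
Tested members of each gene list by the call of the difference between the responses: higher with EIPA than with IL-1a (blue), lower (red) or not called (grey), as numbers of genes. Sterol synthesis genes (25 of 26) and myCAF markers (15 of 28 lower) are nearly 1-sided, and NF-kB and chemokine genes are split.

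Matrix proteases, which IL-1 is known to induce in fibroblasts, held the largest differences toward EIPA among the inflammatory lists. Mmp10, the stromelysin-2 protease, was at 3.16, 2.25, 1.62, 2.12 and 1.64 TPM in 0.2 mM vehicle and 22.2, 12.8, 15.8, 30.6 and 19.00 with EIPA, and at 14.1, 12.8, 11.3, 10.5 and 10.7 in 4 mM vehicle and 22.97, 14.5, 16.2, 12.4 and 9.74 with IL-1a. The EIPA libraries lay above all their vehicle libraries and overlapped with both 4 mM groups. The rise was 2.70 ± 0.20 with EIPA and 0.28 ± 0.20 with IL-1a, a difference of 2.42 ± 0.28 (limma adjusted p = 2.9e-06). Mmp13, a collagenase, rose by 2.16 ± 0.25 (difference 1.86 ± 0.35) and Mmp3, stromelysin-1, by 2.51 ± 0.25 (difference 1.81 ± 0.35). With IL-1a, Mmp3 was at 69.8, 25.8, 20.1, 19.8 and 29.2 TPM against 15.4, 18.03, 16.6, 15.98 and 23.04 in vehicle, a change of 0.70 ± 0.25 that was not called (limma adjusted p = 0.51). Timp1, an inhibitor of these proteases, fell with EIPA from 105 ± 9.44 to 49.2 ± 9.94 TPM, and was at 289 ± 53.2 with IL-1a and 226 ± 23.2 in its vehicle (difference -1.44 ± 0.17). The aggrecanase Adamts5 fell by 1.50 with EIPA (difference -1.22 ± 0.14). Of the 19 tested, the difference was higher for 4, lower for 3 and not called for 12 (36.8% called, against 28.9% of all genes).

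Adhesion and immune surface genes gave a difference that was higher for 7, lower for 3 and not called for 13 of 23 (43.5% called, against 28.9% of all genes). EIPA raised 15 and lowered 3 (27.4% and 21.1% of all), and IL-1a changed 0 (0.283% of all). Tnfaip2, a TNF-induced protein, rose from 56.7 ± 12.3 to 188 ± 18.9 TPM (difference 1.48 ± 0.24, limma adjusted p = 1.2e-04). The class I genes B2m (0.95 ± 0.11), H2-K1 (0.85 ± 0.26) and H2-D1 (0.59 ± 0.13), whose family members may share reads, Cd14, a co-receptor for lipopolysaccharide (0.76 ± 0.21), and the receptors Tlr3 (0.65 ± 0.22) and Tlr4 (0.40 ± 0.13) were the other higher ones. Fas, the death receptor (-1.10 ± 0.21), the syndecan Sdc4 (-0.81 ± 0.10) and Tnfrsf11b, osteoprotegerin (-0.63 ± 0.22), were lower. Vcam1, an adhesion molecule for leukocytes, rose with EIPA (0.64 ± 0.14) and changed by 0.41 ± 0.14 with IL-1a, and the difference was not called (interval -0.16 to 0.64). Icam1, another, had an EIPA rise of 0.28 ± 0.11 (limma adjusted p = 0.047) that was lost under 4 other settings and without any 1 of 11 libraries (0.0508 to 0.119): EIPA replicates 1, 3 and 4, 0.2 mM vehicle replicates 3, 4 and 5, IL-1a replicate 4 and 4 mM vehicle replicates 1, 3, 4 and 5. Its difference had an interval of -0.12 to 0.55.

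Interferon response genes were raised by EIPA in 18 of 37 and lowered in 2 (27.4% and 21.1% of all genes). IL-1a changed 0 of them, where 0.283% of all genes were called. The difference was called for 5 (13.5%, below the 28.9% of all genes), higher for Stat2 (1.19 ± 0.19), Tapbp (1.20 ± 0.16) and Oasl1 (0.93 ± 0.28) and lower for Ifi204 (-0.70 ± 0.16) and Isg20 (-0.68 ± 0.16). For 15 genes raised by EIPA the difference was not called, and the median change with IL-1a was 0.319. Isg15, a ubiquitin-like antiviral protein, shows the pattern: it was at 27.1, 16.1, 19.9, 37.6 and 16.4 TPM in 0.2 mM vehicle and 41.4, 29.04, 35.2, 63.1 and 45.5 with EIPA, and at 20.4, 20.5, 27.4, 24.7 and 23.02 in 4 mM vehicle and 84.9, 28.4, 51.6, 21.3 and 24.4 with IL-1a. The change was 0.87 ± 0.29 with EIPA (called) and 0.65 ± 0.29 with IL-1a (limma adjusted p = 0.78), and the interval of the difference ran from -0.65 to 1.09. Spread within groups was wide, so these data do not separate the responses of this gene.

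Of the 12 tested prostaglandin and redox genes, the difference was lower for 4 and higher for 0 (33.3% called, near the 28.9% of all genes). The lower ones were Ptgis, prostacyclin synthase (-0.86 ± 0.13), Tnfaip6, a hyaluronan-binding protein (-0.75 ± 0.17), the prostaglandin receptor Ptger2 (-0.67 ± 0.20) and the synthase Ptges2 (-0.26 ± 0.09). Ptgs2, the inducible cyclooxygenase, was at 79.2, 81.04, 68.2, 53.1 and 63.2 TPM in 0.2 mM vehicle and 101, 115, 91.8, 95.9 and 77.5 with EIPA, and at 53.8, 55.1, 37.5, 24.9 and 15.1 in 4 mM vehicle and 28.2, 76.7, 93.4, 35.2 and 17.99 with IL-1a. Levels within the 4 mM groups differed several-fold between replicates, and both groups overlapped. Neither response was called, and the interval of the difference was wide (-0.88 to 1.21). Of 6 other tested cytokines, the difference was higher for Kitl, stem cell factor (1.21 ± 0.18), and Tnfsf9, the 4-1BB ligand (1.01 ± 0.17), and not called for 4 (33.3% called). Csf1, the macrophage growth factor, was at 391 ± 54.9 TPM with EIPA, 383 ± 20.4 in its vehicle, 492 ± 79.5 with IL-1a and 562 ± 83.8 in its vehicle (interval of the difference -0.12 to 0.54).

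AP-1 factors and ERK signalling switch on immediate early genes. Of 24 tested AP-1 and immediate early genes, EIPA raised 5 and lowered 8, which is near the 48.5% called over all genes. IL-1a changed 0 of them, where 0.283% of all genes were called. The difference was higher for 4, lower for 6 and not called for 14 (41.7% called, against 28.9%). Of 18 ERK feedback and ETV genes, EIPA raised 11 and lowered 1 (27.4% and 21.1% of all genes), and the difference was higher for 7 and lower for 0 (16.3% and 12.6% of all). Etv4 (1.70 ± 0.29) and Etv5 (1.50 ± 0.24), transcription factors downstream of ERK, and the orphan receptor Nr4a2 (1.62 ± 0.27) had the largest higher differences. Etv4 was at 82.4, 82.7, 81.2, 87.7 and 79.1 TPM with EIPA and between 17.1 and 45.9 in the other 15 libraries. Dusp4 (1.28 ± 0.27) and Dusp6 (0.75 ± 0.25), phosphatases of ERK, were higher too. Klf10, an early TGF-beta target, was lower (-1.16 ± 0.13), at 62.7 ± 11.1 TPM in 0.2 mM vehicle and 26.8 ± 2.24 with EIPA, which overlaps with both 4 mM groups. Jun (-0.80 ± 0.15), Jund (-0.62 ± 0.07) and Fosl2 (-0.49 ± 0.08) were lower, and Fosl1 (1.15 ± 0.41) was higher.

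Of 20 tested iCAF (inflammatory CAF) markers the difference was higher for 5, lower for 8 and not called for 7, where 16.3% of all genes were higher and 12.6% lower. EIPA raised 10 and lowered 6 (27.4% and 21.1% of all), and IL-1a raised 5 and lowered 0 (0.259% and 0.0243% of all). The lower ones included Cxcl1, Cxcl5, Il6, Lif and the matrix genes Efemp1 (-1.15 ± 0.13), Svep1 (-1.26 ± 0.09) and Ogn (-1.40 ± 0.29). Among the higher ones were Ccl2, Cxcl12 and Mt2, a metallothionein, with a rise of 3.19 ± 0.17 with EIPA and a change of 0.42 ± 0.17 with IL-1a that was not called (difference 2.76 ± 0.24). Of 28 myCAF (myofibroblast) markers, EIPA raised 2 and lowered 21 (27.4% and 21.1% of all genes), and IL-1a changed 0 (0.283% of all). The difference was lower for 15 (12.6% of all) and higher for 1, Tgfb1. Acta2, smooth muscle actin, was at 635, 457, 484, 703 and 387 TPM in 0.2 mM vehicle and 135, 91.7, 108, 138 and 65.7 with EIPA, and at 1525, 1364, 1294, 1285 and 842 in 4 mM vehicle and 769.9, 1202, 1212, 1247 and 793 with IL-1a. All EIPA libraries lay below all others, and IL-1a replicates 1 and 5 and vehicle replicate 5 were the lowest of the 4 mM groups. The difference was -2.04 ± 0.29 (limma adjusted p = 3.0e-05). Of 8 tested apCAF (antigen-presenting) markers, the difference was higher for 1, lower for 2 and not called for 5 (37.5% called, against 28.9% of all).

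Outside inflammation the largest differences were in sterol genes. Of 26 genes of sterol synthesis and uptake, 25 rose with EIPA and had a higher difference (27.4% and 16.3% of all genes). IL-1a changed 0 of the 26 (0.283% of all genes). Among the 6 largest higher differences of all genes were Insig1, a sterol sensor (3.90 ± 0.15), Idi1, an isoprenoid enzyme (3.55 ± 0.12), and Cyp51 of cholesterol synthesis (2.97 ± 0.14). Insig1 was at 16.9, 17.8, 19.1, 16.7 and 17.98 TPM in 0.2 mM vehicle and 269.7, 269.8, 273, 344 and 307 with EIPA, and at 56.5, 64.2, 59.9, 75.8 and 84.6 in 4 mM vehicle and 65.7, 61.2, 69.6, 71.9 and 88.95 with IL-1a. EIPA thus took Insig1 from far below the 4 mM groups to above them. Of 22 NRF2 and metallothionein genes, 21 rose with EIPA and the difference was higher for 18 (27.4% and 16.3% of all genes). The largest lower differences beside Saa3 and Cxcl5 were Sema3c, a guidance factor (-2.44 ± 0.27), the cross-linking enzyme Loxl2 (-2.33 ± 0.15) and Flrt3, an adhesion protein (-2.23 ± 0.27). The unannotated gene Gm38079 (-2.95 ± 1.07) was also among them, but it was listed at 0 in 4 of 5 EIPA libraries, 2 of 5 with IL-1a and 4 of 5 of the 4 mM vehicle. Its difference was lost without any 1 of 15 libraries (limma adjusted p = 0.0516 to 0.0774), all but EIPA replicate 3, 0.2 mM vehicle replicate 1, IL-1a replicates 2 and 5 and 4 mM vehicle replicate 3. It was also lost under 5 other settings (0.0523 to 0.108).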

How the data were processed

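Poly(A) RNA of 20 samples in 4 groups of 5 was sequenced as paired reads. The deposited table holds TPM values per gene, estimated by the authors with RSEM on mm10, per the submitters' processing notes, without versions. Which aligner, annotation release and filter they used is not given in the sources used here. Each library sums to 999999.47 to 1000000.84 TPM, so read depth is unknown, and no interval for counting error was made. TPM divides by transcript length, and a change in abundant genes moves all others.

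Genes with at least 1 TPM in 5 libraries were fitted with limma (version 3.58.1, under R version 4.3.3) after taking log2(TPM + 1), using 1 mean per group and a variance trend. Each gene's spread was estimated over all 4 groups together, so a wide group also widens the SE of the response it does not enter. Benjamini-Hochberg adjustment ran over all 12350 genes, with calls under 0.05. A fold change is on the log2(TPM + 1) scale, which understates low genes. The test was run on simulated data first. Intervals are 95% and unadjusted. Named genes were 25 inflammatory genes, the 8 list members with the largest called difference in each direction (mean of at least 5 TPM in a group), the 6 largest of all genes in each direction, and genes called in both responses. A few of these genes are not reported here. The other IL-1a genes and list examples were added after their values were seen. The members and lists were chosen with earlier results of these data known. Promoters are RefSeq's on GRCm38.p6. The alternatives, among them another pseudocount, filters, scalings and leaving out each library, are in the closing section.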

Additional observations from a re-analysis of the deposited data

Results flagged for a closer look

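Among 252 groups of 5 libraries behind the named genes, 17 (6.75%) held a library whose gap to the others took over 0.71 of the group's range, and chance gives about 1 in 20. Of these, 6 were IL-1a replicate 1, the highest of its group in each. In that library Saa3 was at 60.92 TPM (7.67 to 13.47 in the other 4), Dpy19l1 at 121.42 (80.4 to 87.43), Susd6 at 62.29 (36.61 to 42.51), Casp4 at 21.17 (12.42 to 14.02), Rgs4 at 5.02 (1.65 to 2.3) and Icam1 at 18.0 (10.96 to 12.53). Loxl2 was low in IL-1a replicate 3, at 171.51 TPM (223.83 to 235.04 in the others).

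In 4 mM vehicle replicate 5, Acta2 was at 841.65 TPM (1284.99 to 1525.42 in the others). In 0.2 mM vehicle replicate 1, Vcam1 was high at 81.76 TPM (65.27 to 68.02), Dpy19l1 at 35.8 (30.95 to 32.06) and Plscr1 at 38.97 (32.7 to 34.24). Ahcyl1 was at 188.54 TPM in 0.2 mM vehicle replicate 4 (172.16 to 176.24) and Etv5 at 6.71 in replicate 5 (12.27 to 15.06). With EIPA, Lif was at 2.5 TPM in replicate 1 (4.52 to 5.14) and Etv5 at 33.83 in replicate 5 (40.08 to 42.35). Gm38079 was at 12.72 TPM in EIPA replicate 3 and at 8.82 in 4 mM vehicle replicate 3, and the other 4 of each group were listed at 0.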

How the results depend on the processing

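Leaving out each library in turn gave 3137 to 3759 called differences, 5424 to 6152 EIPA responses and 27 to 47 IL-1a responses. By class it gave 9 to 16 genes changed with both without a called difference, 6 to 12 unequal, 1 to 5 opposite, 3030 to 3651 EIPA only, 8 to 14 IL-1a only, 2259 to 2866 called with EIPA without a called difference, and 0 to 2 with IL-1a likewise. The 6 unequal genes came without 4 mM vehicle replicate 3, and the 1 opposite gene without EIPA replicate 2. Settings other than weights and a replicate block gave 3134 to 3618 differences, and quality weights gave 5044, with 7324 EIPA and 50 IL-1a responses. The main fit did not pair samples by replicate number, and the labels do not say whether the numbers pair them. Of 10 correlations of same-numbered deviations, 2 were under 0.1 (0.06 and -0.28). The other 8 ran from 0.16 to 0.60, and for 6 of 10 the best match was the same number. These values do not settle whether the samples are paired. A replicate block gave 4000 differences, 6305 EIPA and 39 IL-1a responses. Opposite genes numbered 5 with 0.1 TPM added, median-of-ratios scaling, robust estimation or the block, and 8 with weights. Unequal genes numbered 16 with weights. With a mean of at least 5 TPM required, 7 genes changed with both without a called difference and 5 with IL-1a only, and 20 did so with no filter. The class of C1qtnf3 held 0 genes with 0.1 TPM added, the 5 TPM minimum, no trend, weights or the 3 libraries left out, 2 with median-of-ratios scaling and 3 without the mitochondrial genes. For all of these the cause was not tested, apart from the filters, which test other numbers of genes.

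Of 5826 values of 63 named genes under other settings, 5577 kept direction and call, 187 lost the call, 14 gained one and 48 changed sign. With 0.1 TPM added the difference was 0.25 for Ccl7, 0.44 for Hp, 0.13 for Fgf7 and -0.07 for C1qtnf3, as the smaller addition shrinks low genes less. The Csf1 EIPA change was -0.02 with median-of-ratios scaling, -0.03 without mitochondrial genes, -0.04 with weights and -0.06 to 0.06 with each library left out in turn. Weights gave differences of -0.03 for Slpi and -0.02 for Wdyhv1, an EIPA change of 0.02 for Susd6 and IL-1a changes of 0.03 for Klf10 and 0.01 for Cyp51, and quantile normalisation 0.00 for Nr4a2. Without the 3 libraries that stand apart, the Ptgs2 difference was -0.14, and IL-1a changes were -0.05 for Icam1, 0.07 for Klf10 and -0.01 for Sema3c. With each library left out in turn, IL-1a changes that turned ran from -0.08 to 0.05 for Cyp51, -0.09 to 0.27 for Etv4, -0.06 to 0.11 for Icam1, -0.03 to 0.06 for Idi1, -0.01 to 0.15 for Insig1, -0.06 to 0.03 for Klf10, -0.12 to 0.14 for Nr4a2, -0.03 to 0.17 for Sema3c and -0.06 to 0.26 for Tnfaip3. Differences that turned ran from -0.13 to 0.45 for Ptgs2, -0.05 to 0.32 for Slpi and -0.03 to 0.09 for Wdyhv1, and the EIPA change of Susd6 from -0.04 to 0.00. None of these values was called as reported or under the setting. The cause was not tested.

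TPM keeps no read depth, so low genes such as Il6, Saa3 and Rgs4 carry an unknown counting error. Glutamine differs between the responses, and the origin of the replicates is not in the labels.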
